A study of Mus musculus with 8 samples.

Results

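A set of 10 chemokine, inflammatory signalling and reactive glia genes was followed in cultured mouse cortical astrocytes with and without connexin43: Cx3cl1, Ccl9, Nfkb2, Stat3, Socs2, Steap4, Cd44, Tspo, Tm4sf1 and Lgals9. The genes were taken by symbol from the array's probe annotation, in which 5822 symbols stood alone on a feature, and they were chosen by their ratios on these same arrays, above all because Cx3cl1 differed between the genotypes while others peaked on a single array. All 10 were measured, each by 1 feature, with a ratio on all 8 arrays. The comparison between wild-type (WT) and connexin43 null (Cx43 KO) arrays and the pattern over arrays are therefore given as a description of the set, without a test of their own.

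RNA came from astrocytes cultured from the cortex of neonatal mice, WT or lacking connexin43, the main gap junction protein of astrocytes. There were 4 arrays for each genotype, numbered 1 to 4, and each number was also a lot batch that held 1 array of each genotype. The labels name the strain C57BL/6j for WT 1, and the label of Cx43 KO 3 reads Cx43 without the word KO. The labels state no treatment, and they do not say whether the samples of a genotype came from separate cultures or animals, so a p-value here reflects the spread among these 8 arrays alone, and that spread may be technical. On each array the astrocyte RNA was set against 1 common reference, a pool of RNA from adult mouse tissues that included brain, spleen and lung. Each value below is the log2 ratio of astrocytes over that pool, with the median of the array set to 0. The base of the logarithm is assumed to be 2. A ratio is not a transcript level, so the ratio of 1 gene was not ranked against that of another. Because whole cultures were measured, a difference in RNA per cell and a difference in the number of cells of a type cannot be told apart.

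Chemokines are small secreted proteins that guide leukocytes and microglia. Fractalkine, the product of Cx3cl1, is made as a membrane protein on a mucin-like stalk, can be shed by the proteases Adam10 and Adam17, and acts on the receptor Cx3cr1, which in brain is carried by microglia. Inflammatory cytokines act on glia largely through the NF-kB and JAK-STAT pathways. Astrocytes that respond to injury or inflammation are called reactive, and Steap4, Cd44 and Tm4sf1 are among the genes known to be induced in them.

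The promoters of 8 of the 10 genes were listed in the RefSeq table of build GRCm38.p6, and Socs2 and Tspo were not among them. The 250 bases before the start of 5 genes are shown because these genes carry the contrast of the data. They are Cx3cl1, which was not highest on Cx43 KO 4, Steap4, Ccl9 and Lgals9, which peaked on that array, and Nfkb2, a gene of the NF-kB pathway itself, for which the first of 3 listed starts was taken. Sequences run 5′ to 3′ on the strand of the gene, and capitals mark matches to the NF-kB, STAT, AP-1 and interferon regulatory factor (IRF) motifs spelled out after them.
Cx3cl1, chr8:94771930-94772179, plus strand: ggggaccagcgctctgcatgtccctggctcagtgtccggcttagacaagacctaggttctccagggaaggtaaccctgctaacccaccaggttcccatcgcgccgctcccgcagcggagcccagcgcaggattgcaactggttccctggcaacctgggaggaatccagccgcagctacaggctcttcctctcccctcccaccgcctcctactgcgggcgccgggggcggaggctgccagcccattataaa
Steap4, chr5:7960222-7960471, plus strand: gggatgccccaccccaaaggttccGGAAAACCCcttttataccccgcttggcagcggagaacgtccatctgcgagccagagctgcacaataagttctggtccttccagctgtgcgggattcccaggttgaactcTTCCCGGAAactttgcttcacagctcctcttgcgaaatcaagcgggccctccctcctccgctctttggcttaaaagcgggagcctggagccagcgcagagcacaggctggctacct
Ccl9, chr11:83578637-83578886, minus strand: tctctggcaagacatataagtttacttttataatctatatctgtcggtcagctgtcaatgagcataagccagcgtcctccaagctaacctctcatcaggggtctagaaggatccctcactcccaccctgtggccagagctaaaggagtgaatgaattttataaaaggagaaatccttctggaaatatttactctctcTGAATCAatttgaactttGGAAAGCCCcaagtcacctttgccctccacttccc
Lgals9, chr11:78984925-78985174, minus strand: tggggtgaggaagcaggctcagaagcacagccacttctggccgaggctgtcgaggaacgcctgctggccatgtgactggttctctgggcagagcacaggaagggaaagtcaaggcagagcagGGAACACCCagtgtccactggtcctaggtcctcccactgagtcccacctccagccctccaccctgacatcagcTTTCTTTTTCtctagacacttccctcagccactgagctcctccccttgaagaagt
Nfkb2, chr19:46304487-46304736, plus strand: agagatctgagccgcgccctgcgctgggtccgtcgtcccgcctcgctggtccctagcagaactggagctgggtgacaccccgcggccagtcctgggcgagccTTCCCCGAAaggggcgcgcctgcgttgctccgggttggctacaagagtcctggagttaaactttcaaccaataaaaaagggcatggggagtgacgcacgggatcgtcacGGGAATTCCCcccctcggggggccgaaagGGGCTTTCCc

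The motifs were searched on both strands as GGGNNTTCC for NF-kB, TTCNNNGAA for STAT and, for IRF, GAAA repeated after any 2 bases. The NF-kB letters were found in 4 of the 8 genes, Steap4, Ccl9, Lgals9 and Nfkb2, and in 4.98% of all 32851 promoters of the same length. In Nfkb2 the matches GGGAATTCC and GGAATTCCC overlapped on opposite strands, and GGGCTTTCC lay closest to the start. The STAT letters were found in Steap4, as TTCCCGGAA, and in Nfkb2, as TTCCCCGAA, and in 7.02% of all promoters. The AP-1 letters, TGANTCA, were found in Ccl9 and, before its second listed start, in Nfkb2 (6.75% of all promoters), and the IRF letters in Lgals9 and Tm4sf1 (2.98%). Cx3cl1, Cd44 and Stat3 held none of the 4 in these windows. A gene was counted if any of its listed starts held a match, whereas the shares count each promoter singly, so the 2 are not on the same basis. A match describes the letters only and is not a measured binding site.

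Between 3506 and 5514 of 9568 features carried a ratio on an array. Gja1, the gene of connexin43, was named by 0 features, and its transcript therefore gave no check on the genotype of an array. Over 2163 named genes with 8 values, Cx43 KO 4 correlated with the other arrays at r = 0.67 to 0.79, while the other 7 correlated with each other at 0.77 to 0.92 (across genes, which are not independent replicates). Differences that move by over 1.5 times without Cx43 KO 4 are therefore given with and without it. Genes with too few values for a fit without it are given with their Cx43 KO values instead. Astrocyte markers lay above the pool, with a median of 1.19 over 5 genes, and markers of adult tissues below it, with a median of -0.94 over 6 genes. That difference was used to check the direction of the ratio.

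Cx3cl1 was the one gene of the set in which every Cx43 KO array lay above every WT array. Its log2 ratio was -1.41, -1.16, -1.70 and -1.31 on WT arrays 1 to 4, against -0.78, -0.91, -0.04 and -0.42 on Cx43 KO arrays 1 to 4. The ratio was thus below the array median on all 8 arrays, and less far below it in Cx43 KO. Before centring the median of Cx43 KO 3 was 0.22, so its uncentred Cx3cl1 ratio lay above the pool. The WT mean of -1.39 ± 0.23 (SD, n = 4) and the Cx43 KO mean of -0.53 ± 0.39 (SD, n = 4) lay 0.86 apart (SE 0.22, 95% interval 0.36 to 1.35), which is 1.81-fold. Within lot batches 1 to 4 the difference was 0.63, 0.25, 1.66 and 0.89. The highest array, Cx43 KO 3, lay only 0.38 above the next, Cx43 KO 4. Without Cx43 KO 4 the difference was 0.82 (SE 0.24). Without Cx43 KO 3, whose label lacks the word KO, it was 0.69, and without both arrays of lot batch 3 it was 0.59. Of 2163 named genes with 8 values, 35 (1.62%) had all Cx43 KO arrays above all WT arrays and 49 (2.27%) had all below, and of the 10 genes 1 was higher in this way and 0 were lower. Since Cx3cl1 was chosen for its difference, this count adds nothing to it.

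**Figure D1:**
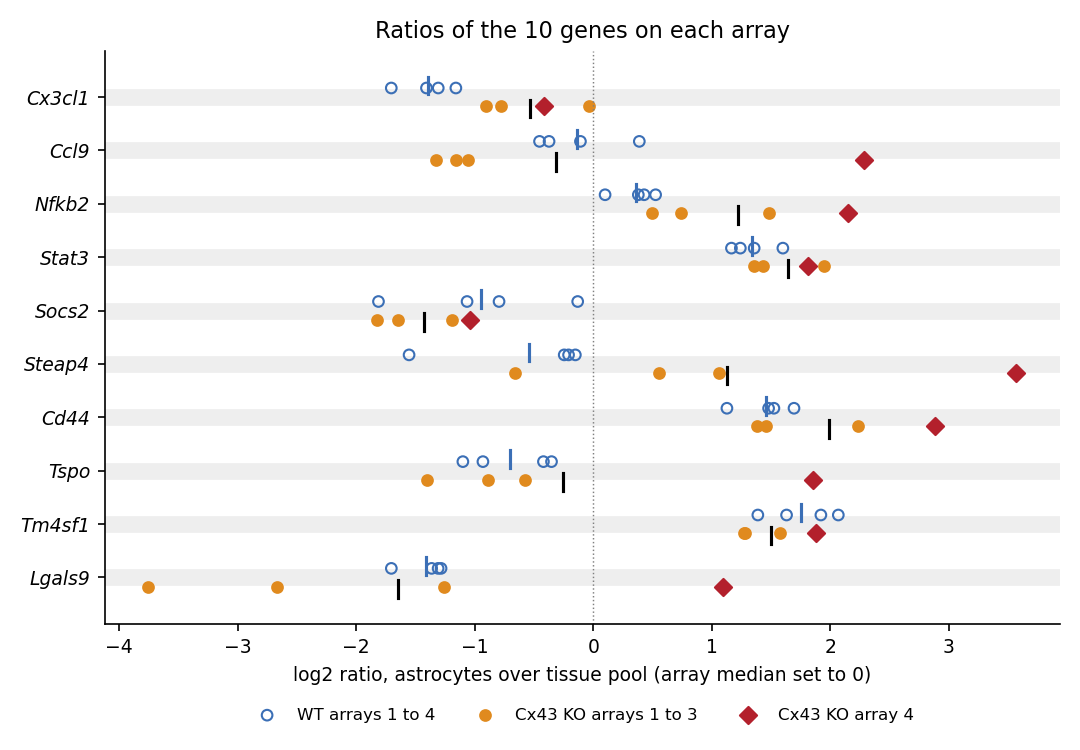
Log2 ratio of astrocytes over the tissue pool (x axis, array median set to 0) for the 10 genes, with WT arrays as open circles above and Cx43 KO arrays filled below, Cx43 KO 4 as a diamond and vertical bars for the mean of 4 arrays. The Cx43 KO points of Cx3cl1 (-0.91 to -0.04) lie to the right of all its WT points (-1.70 to -1.16), and the diamonds of Steap4, Ccl9, Tspo and Lgals9 lie apart from all their other points.

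Ccl9, a CC chemokine of myeloid cells, was low on 3 Cx43 KO arrays and highest on the remaining one. Its ratio was -0.45, -0.11, 0.39 and -0.37 on WT arrays 1 to 4, against -1.16, -1.06, -1.33 and 2.28 on Cx43 KO arrays 1 to 4. Cx43 KO 1 to 3 lay below every WT array, and Cx43 KO 4 lay 1.89 above the next highest array, WT 3. The genotype means of -0.14 ± 0.38 (SD, n = 4) and -0.32 ± 1.74 (SD, n = 4) differed by -0.18 (SE 0.69), far less than the spread within Cx43 KO. Without Cx43 KO 4 the difference was -1.05 (SE 0.22). Without Cx43 KO 1, 2 or 3 it was 0.10, 0.07 and 0.16, so its sign depended on single arrays, and it was -0.0044 without WT 3 and -0.29 without WT 1. Over the 8 arrays Ccl9 and Cx3cl1 correlated at r = -0.04, and at r = -0.87 over the 7 arrays without Cx43 KO 4. These points share the reference and the genotype contrast for which Cx3cl1 was chosen.

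Among the signalling genes, Nfkb2, which encodes the p100 precursor of the non-canonical NF-kB pathway, came closest to the arrangement of Cx3cl1. Its ratio was 0.10, 0.43, 0.53 and 0.38 on WT arrays 1 to 4, against 0.49, 0.74, 1.48 and 2.15 on Cx43 KO arrays 1 to 4. Cx43 KO 1 lay just below WT 3, and the other Cx43 KO arrays lay above all WT arrays. The difference was 0.86 (SE 0.33), of the same size as that of Cx3cl1, but Nfkb2 was highest on Cx43 KO 4, by 0.67 over Cx43 KO 3. Without Cx43 KO 4 the difference was 0.55 (SE 0.24). Within lot batches 1 to 4 it was 0.39, 0.31, 0.96 and 1.77.

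Stat3, the transcription factor that carries signals of the interleukin-6 family, lay well above the pool on all arrays and varied little. Its ratio was 1.24, 1.60, 1.17 and 1.36 on WT arrays 1 to 4, against 1.36, 1.44, 1.95 and 1.81 on Cx43 KO arrays 1 to 4. The genotypes overlapped, and the difference was 0.30 (SE 0.19). It was 0.03 with quantile normalization, 0.05 with scale normalization and 0.19 without Cx43 KO 3. Socs2, a suppressor of cytokine signalling that restrains growth hormone signals, lay below the pool. Its ratio was -0.13, -1.81, -0.79 and -1.06 on WT arrays 1 to 4, against -1.19, -1.65, -1.82 and -1.04 on Cx43 KO arrays 1 to 4. WT 1 stood highest and WT 2 among the lowest, so the WT arrays alone covered nearly the whole range. The difference was -0.47 (SE 0.33), and it was -0.20 without WT 1, -0.76 without WT 2, -0.31 with quantile normalization and -0.28 with scale normalization.

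Steap4, a metalloreductase of inflamed tissue and reactive astrocytes, had the widest range of the set. Its ratio was -1.55, -0.15, -0.24 and -0.21 on WT arrays 1 to 4, against 0.55, 1.06, -0.66 and 3.57 on Cx43 KO arrays 1 to 4. Cx43 KO 1, 2 and 4 lay above every WT array, and Cx43 KO 3 lay below WT 2 to 4. Cx43 KO 4 stood 2.51 above the next array, a 5.69-fold gap. The difference between genotypes was 1.67 (SE 0.74), and 0.86 (SE 0.43) without Cx43 KO 4. Within lot batches it was 2.11, 1.21, -0.41 and 3.78. Part of the large value in lot batch 1 lay in WT 1, whose ratio of -1.55 stood apart from the other WT arrays.

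Lgals9 encodes galectin-9, a sugar-binding protein that acts on immune cells. Its ratio was -1.70, -1.31, -1.28 and -1.36 on WT arrays 1 to 4, against -3.75, -2.67, -1.26 and 1.09 on Cx43 KO arrays 1 to 4. The WT arrays lay within 0.42 of each other, while the Cx43 KO arrays covered 4.85 log2 units on both sides of them. The mean difference of -0.23 (SE 0.81) averaged over these opposite values. It was -1.14 without Cx43 KO 4, 0.47 without Cx43 KO 1, 0.11 without Cx43 KO 2, -0.36 without Cx43 KO 3, -0.15 with quantile normalization and -0.03 with scale normalization.

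Tspo, the translocator protein of the outer mitochondrial membrane that is used as an imaging target for activated glia, had a ratio of -0.35, -1.10, -0.93 and -0.42 on WT 1 to 4. On Cx43 KO 1 to 4 it was -0.89, -1.40, -0.58 and 1.86. Cx43 KO 1 and 3 lay within the WT range and Cx43 KO 2 below it, and Cx43 KO 4 was the only array above the pool, 2.21 above the next. The difference was 0.45 (SE 0.59) over all arrays, 0.83 without Cx43 KO 2 and -0.26 (SE 0.26) without Cx43 KO 4.

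Cd44, the hyaluronan receptor, lay above the pool throughout, at 1.69, 1.52, 1.13 and 1.48 on WT arrays 1 to 4, against 1.46, 1.38, 2.23 and 2.88 on Cx43 KO arrays 1 to 4. Cx43 KO 3 and 4 lay above all WT arrays, and Cx43 KO 1 and 2 lay within the WT range. The difference was 0.53 (SE 0.32), and it was 0.24 without Cx43 KO 4, 0.23 with quantile normalization and 0.24 with scale normalization. Tm4sf1, a membrane protein related to the tetraspanins, was the flattest gene beside Stat3. Its ratio was 1.39, 1.92, 2.07 and 1.63 on WT arrays 1 to 4, against 1.58, 1.28, 1.27 and 1.88 on Cx43 KO arrays 1 to 4. The genotypes overlapped, with a difference of -0.25 (SE 0.21), which was -0.54 with quantile normalization, -0.52 with scale normalization, -0.15 without WT 3 and -0.38 without Cx43 KO 4.

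To set Cx3cl1 apart from genes that peak on single arrays, a peak was defined as a highest array at least 1 log2 unit above the next. By this measure 4 of the 10 genes peaked, Steap4 (2.51), Lgals9 (2.35), Tspo (2.21) and Ccl9 (1.89), and all 4 did so on Cx43 KO 4. Over the 2163 named genes with 8 values 67 (3.1%) peaked, and 42 (1.94%) did so on Cx43 KO 4. No other array held more than 7 peaks. The set was listed for this pattern, so its share is no evidence about these genes. The gaps of the 4 genes lay well inside the definition, and the nearest gene outside it was Nfkb2 at 0.67, followed by Socs2 at 0.66 and Cd44 at 0.65. The median gap was 0.67 in the set and 0.16 over all these genes. Of the 10 genes 6 were highest on Cx43 KO 4, as were 443 of 2163 (20.5%). Cx3cl1 and Stat3 were highest on Cx43 KO 3, Tm4sf1 on WT 3 and Socs2 on WT 1.

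**Figure D2:**
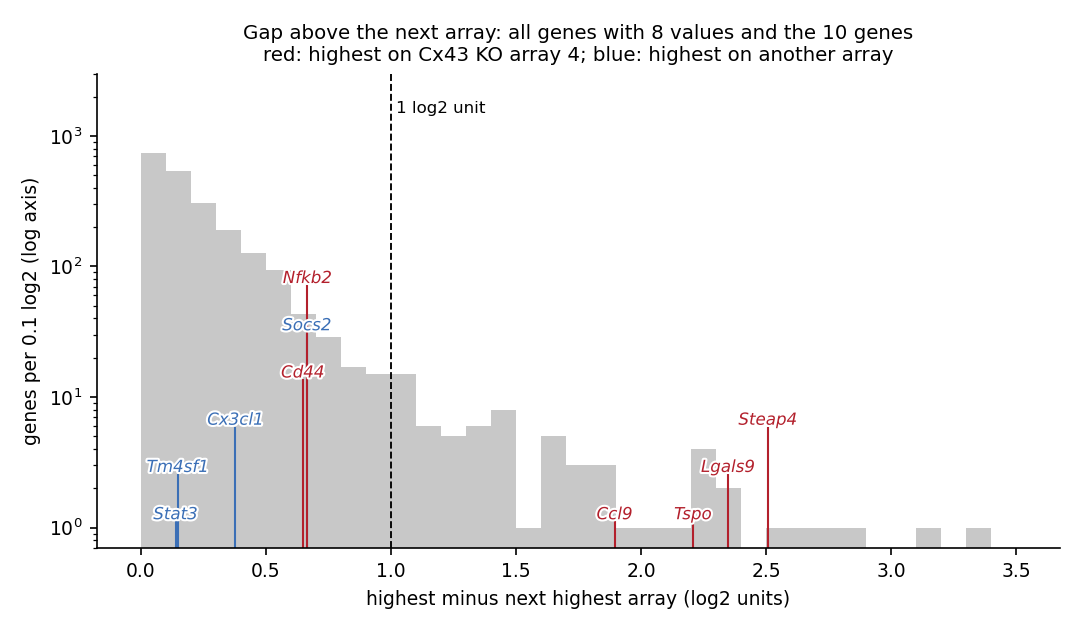
Histogram of the gap between the highest and the next highest array (x axis, log2 units) over 2163 named genes with 8 values (y axis, number of genes per bin, log scale), with the 10 genes marked, red where the highest array was Cx43 KO 4. Steap4, Lgals9, Tspo and Ccl9 lie between 1.89 and 2.51, beyond the dashed line at 1, and Cx3cl1 lies at 0.38.

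The contrast of Cx43 KO with WT compares the transcript ratios of whole astrocyte cultures lacking connexin43 with those of WT cultures. Of the 10 genes 6 were higher and 4 lower in Cx43 KO by the mean, with a median difference of 0.37, against 1845 of 3505 tested genes and unnamed features higher (52.6%) and a median of 0.02. The fit across all of these (limma, Benjamini-Hochberg adjusted p under 0.05) called 0 of 3505 (0%), and so 0 of the 10. At an unadjusted p of 0.05, 263 of 3505 (7.5%) lay below the threshold. Ordered by p, Cx3cl1 stood at place 19, Nfkb2 at 131 and Steap4 at 247, which describes how the set was chosen. Without Cx43 KO 4, 5 of the 10 were higher and 5 lower. The difference of Cx3cl1 moved from 0.86 to 0.82 on leaving out this array, and to 0.69 on leaving out Cx43 KO 3, its own highest array. That of Tspo, which peaked on Cx43 KO 4, turned from 0.45 to -0.26 without Cx43 KO 4. It was the one turn of sign among the 10 without that array (337 of 2163 named genes turned, 15.6%). The set was chosen for these patterns, so this contrast adds nothing to them.

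**Figure D3:**
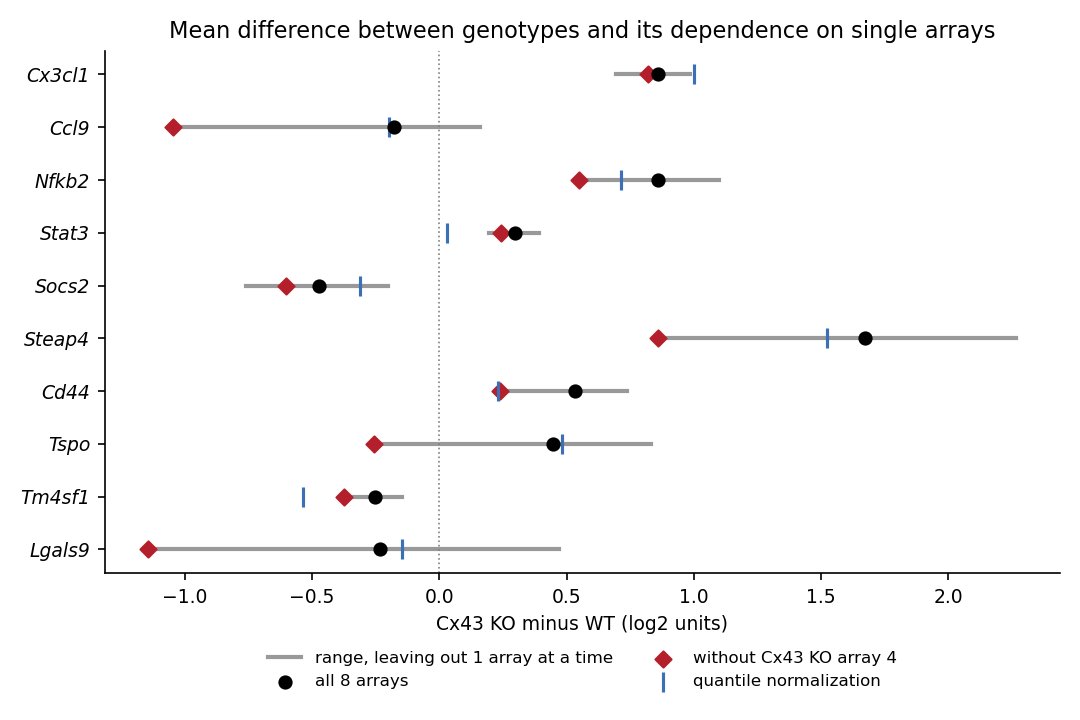
Cx43 KO minus WT difference of each gene (x axis, log2 units) over all 8 arrays (black), without Cx43 KO 4 (red diamond) and with quantile normalization (blue tick), with a grey line for the range when 1 array at a time was left out. Cx3cl1 stays between 0.69 and 0.98 when 1 array is left out, whereas the lines of Ccl9, Tspo and Lgals9 cross 0.

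Means of several marker lists were highest or lowest on Cx43 KO 4. The microglia and fibroblast means also lay below every WT array on Cx43 KO 1 and 2. The mean of 5 adult tissue genes on Cx43 KO 4, at -2.48, lay within its WT range of -2.84 to -2.16. Of 24 microglia and macrophage markers 13 were on the array and 7 had 8 values. Their mean was 0.70 to 1.38 on the WT arrays and 0.05, 0.31, 1.22 and 2.51 on Cx43 KO 1 to 4, and 5 of the 7 were highest on Cx43 KO 4. Adgre1, a surface antigen of macrophages, was 4.91 there against at most 2.63 elsewhere. Tyrobp and Lgmn were not highest there. Tyrobp was 1.06, against 1.29 on WT 2, and Lgmn was 0.68, against 1.59 on Cx43 KO 3. Ptprc, Fcer1g and Ctss were listed at 0 on all arrays. The mean of 5 fibroblast, meningeal and mural markers was 0.46 to 1.63 on WT arrays and -1.42, -1.06, 0.79 and 2.06 on Cx43 KO 1 to 4. On Cx43 KO 4, 4 of the 5 were highest. Ptgds went the other way, at -1.23 there, below its WT range of -0.86 to 0.72. Lum, a marker of this list with 6 values, was -0.25 there, against 1.15 on WT 1. The mean of 3 astrocyte markers, Aldoc, Fabp7 and Ttyh1, was 1.86 to 2.20 on WT arrays, 1.75 to 2.02 on Cx43 KO 1 to 3 and 0.46 on Cx43 KO 4, where all 3 were lowest. Slc1a2, the astrocyte glutamate transporter, was listed at 0 on all arrays. The mean of 2 neuronal markers, Map2 and Nefm, was -1.22 to -0.26 on WT arrays, -0.85 to -0.24 on Cx43 KO 1 to 3 and -2.27 on Cx43 KO 4, where Map2 was lowest at -2.54. Nefm was -2.01 on Cx43 KO 4, within its WT range of -2.73 to -1.40. Rbfox3, a neuronal marker with 7 values, was highest on Cx43 KO 4, at -1.13. Cnp, the 1 oligodendrocyte marker with 8 values, was -0.42 to 0.18 on WT arrays, -0.06 to 0.13 on Cx43 KO 1 to 3 and -1.53 on Cx43 KO 4. Of 7 endothelial markers on the array 1 was tested and 0 had 8 values. The part of these cells in the ratios of the 10 genes was not tested.

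The genes of the set followed the microglia and macrophage mean to different degrees over the 8 arrays. Pearson's r was 0.96 for Lgals9 (0.89 over the 7 arrays without Cx43 KO 4), 0.86 for Ccl9 (0.59), 0.76 for Tspo (0.12), 0.71 for Nfkb2 (0.23), 0.70 for Cd44 (0.16) and 0.52 for Steap4 (-0.48). It was 0.56 for Tm4sf1 (0.51), 0.52 for Stat3 (0.28), 0.23 for Cx3cl1 (-0.14) and -0.0019 for Socs2 (-0.13). Lgals9 thus followed this mean also among the remaining arrays, and Ccl9 and Tm4sf1 did so less closely. The r of Steap4 and that of Cx3cl1 turned sign there. With the fibroblast mean, r was 0.86 for Lgals9 (0.86 without Cx43 KO 4), 0.68 for Tspo (0.73), 0.65 for Ccl9 (0.51), 0.04 for Steap4 (-0.88) and -0.06 for Cx3cl1 (-0.33). The 4 genes that peaked thus differed in how they followed it. These correlations share the reference and the arrays and are descriptions over few points.

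**Figure D4:**
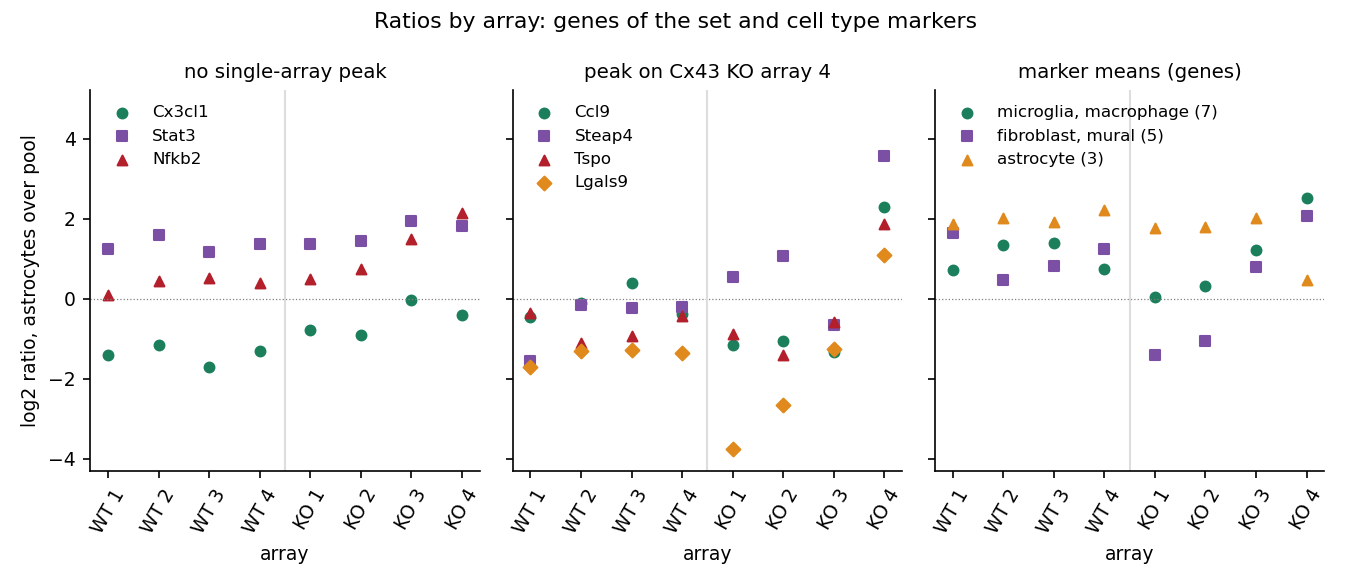
Log2 ratios on each array (x axis, WT 1 to 4 and KO 1 to 4) for Cx3cl1, Stat3 and Nfkb2 (left), for Ccl9, Steap4, Tspo and Lgals9 (middle) and for the means of microglia, fibroblast and astrocyte markers with 8 values (right, number of genes in brackets). On Cx43 KO 4 the 4 genes of the middle panel reach 1.09 to 3.57, the microglia mean 2.51 and the astrocyte mean 0.46.

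The named genes most like Cx3cl1 over the 8 arrays, among 2162, were Tln1 (r = 0.95), the talin that links integrins to actin, the RNA helicase gene Ddx24 (0.94), Aamp (0.93), Sel1l (0.92), an adaptor of endoplasmic reticulum degradation, and Stat3 (0.90). Spearman's rho was 0.95, 0.93, 0.83, 0.83 and 0.90. Without Cx43 KO 3 and WT 3, the arrays farthest from the median of Cx3cl1, r was 0.94, 0.85, 0.80, 0.85 and 0.73. Tln1 had the arrangement of Cx3cl1 above the array median instead of below it, at 1.25 to 1.80 on WT arrays and 2.10, 2.45, 2.79 and 2.88 on Cx43 KO 1 to 4. Nfkb2 and Cd44 correlated with Cx3cl1 at r = 0.78 and 0.74.

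The genes most like Steap4, which had the largest gap, were Btrc (r = 0.94), a substrate adaptor that directs the NF-kB inhibitor to degradation, Xaf1 (0.94) and Ifitm3 (0.90), both induced by interferon, Acbd3 (0.94), a Golgi protein that binds Tspo, and Bnip3 (0.91). Spearman's rho was 0.90 for Btrc, 0.69 for Xaf1, 0.79 for Ifitm3, 0.81 for Acbd3 and 0.88 for Bnip3. Without Cx43 KO 4 and WT 1, the arrays farthest from the median of Steap4, r was 0.75 for Btrc, 0.61 for Xaf1, 0.74 for Ifitm3, 0.67 for Acbd3 and 0.84 for Bnip3. Of these 5, Btrc, Xaf1 and Ifitm3 peaked on Cx43 KO 4 by 1.69, 1.41 and 1.82.

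Around these genes, 13 lists of pathway partners held 252 other genes, of which 93 were on the array and 37 were tested. By limma 0 of the 37 passed, with adjusted p from 0.471 to 1, 16 being higher and 21 lower with a median difference of -0.02. Of the 27 with 8 values 14 were highest on Cx43 KO 4, and 2 peaked there. Over all 2163 named genes with 8 values these counts were 443 (20.5%) and 42 (1.94%). The lists were chosen with earlier results of these data known, so their counts are a description only.

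Chemokine ligands other than the 2 of the set were tested for 5 of 13 on the array, 2 higher and 3 lower (median difference -0.05). Pf4, platelet factor 4, differed by -1.17 (SE 0.42, limma adjusted p = 0.65). Its ratio was 0.08, 0.22, 0.28 and -0.29 on WT arrays 1 to 4, against -2.52, -1.07, -0.64 and -0.16 on Cx43 KO arrays 1 to 4, so that Cx43 KO 1 to 3 lay below every WT array, as for Ccl9, but Cx43 KO 4 did not peak. Ccl27a differed by -0.27 (SE 0.20), or -0.09 without Cx43 KO 4, and the macrophage chemokine Ccl3 by 0.28 (SE 0.71), or -0.60 without Cx43 KO 4. Ccl3 was 3.03 on Cx43 KO 4 and at most 0.41 elsewhere. Ccl6, a gene of the Ccl9 cluster chosen after its values were seen, was 1.39 on Cx43 KO 4 and -2.86 to -1.29 on the 6 other arrays that measured it. Of 4 chemokine receptors on the array 0 were tested, and Cx3cr1, the receptor of fractalkine, was not analysed here.

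Of the proteases that shed fractalkine and Cd44 and their regulators 4 were tested, 1 higher and 3 lower (median difference -0.18). Adam17 differed by -0.35 (SE 0.28), with the Cx43 KO arrays at -0.23, -0.42, 0.39 and 0.87, the gelatinase Mmp2 by -0.54 (SE 0.69) and Rhbdf2, which controls Adam17, by 0.02 (SE 0.45). Without Cx43 KO 4 these were -0.59, -1.20 and -0.43. Adam10, named after its values were seen, lay at 1.14 in both genotypes and differed by -0.0020 (SE 0.22), or -0.02 without Cx43 KO 4.

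In the NF-kB list 3 genes were tested of 15 on the array, 2 higher and 1 lower (median difference 0.03). Nfkbiz differed by 0.17 (SE 0.24), the kinase Tbk1 by 0.03 (SE 0.20) and the adaptor Myd88 by -0.02 (SE 0.34), against 0.86 for Nfkb2. On leaving out Cx43 KO 4, Tbk1 differed by -0.08 and Myd88 by -0.30, against 0.55 for Nfkb2. Nfkbiz, not fitted without this array, was 0.07 on Cx43 KO 4, -0.65 on Cx43 KO 1 and -0.32 on Cx43 KO 3. In the JAK-STAT list 10 genes were tested of 18, 4 higher and 6 lower (median difference -0.10). Igf1, a target of growth hormone and Stat5, differed by -0.76 (SE 0.20, limma adjusted p = 0.47), at 0.41 to 0.73 on WT arrays and -0.54 to 0.26 on Cx43 KO arrays. The suppressor Socs5 differed by -0.29 (SE 0.18), or -0.19 without Cx43 KO 4, and Pias4 by -0.55 (SE 0.34, 3 arrays per genotype). Pias4, not fitted without Cx43 KO 4, was -0.51 on that array, -1.23 on Cx43 KO 2 and -1.49 on Cx43 KO 3. Ptpn6, a phosphatase of blood cells and microglia named after its values were seen, was 1.72 on Cx43 KO 4 and at most 0.44 elsewhere.

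Of the reactive astrocyte lists few genes could be tested. Lcn2, lipocalin-2, a strong marker of reactive astrocytes, was 4.32 on Cx43 KO 4 and -2.54 to -0.33 on the 6 other arrays that measured it, a difference of 1.95 (SE 1.32) with all arrays and 0.53 without Cx43 KO 4. Cd109 and Emp1, of the class linked to ischaemia, differed by -0.25 (SE 0.28) and 0.01 (SE 0.25), or by -0.05 and -0.17 without Cx43 KO 4. On Cx43 KO 4 they stood at 2.50, the lowest array, and 1.65, the highest. The list of the class linked to endotoxin had 0 tested genes of 4 on the array. Untested genes follow, named after their values were seen. On Cx43 KO 4 Iigp1 was 0.88, against -3.02 to -2.43 on other arrays with a ratio, and Gbp2 3.84, against 1.34 to 2.06. Amigo2 was -0.34 there and -0.73 on Cx43 KO 3, and Srgn had no ratio. Of the ischaemia class, Ptx3 was 3.75 there against at most 1.86, and Cd14 3.54 against at most 2.25. B3gnt5 of this class (-0.07) and S1pr3, listed for all stimuli instead (3.02), were lowest there among the 4 arrays with a ratio.

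Among galectins related to Lgals9, 3 were tested. Lgals8 differed by 0.17 (SE 0.16), Lgals3 by -0.22 (SE 0.31, 3 arrays per genotype) and Lgals2 by 0.13 (SE 0.21), and Lgals2 lay far below the pool in both genotypes, at -4.38 and -4.25. Lgals3, not fitted without Cx43 KO 4, was 1.64 on that array, 0.56 on Cx43 KO 1 and 0.67 on Cx43 KO 3. Lgals8 differed by 0.11 and Lgals2 by 0.26 without Cx43 KO 4. None spread over the Cx43 KO arrays as Lgals9 did, with Cx43 KO values of 0.22 to 0.55 for Lgals8, 0.56 to 1.64 for Lgals3 and -4.66 to -3.83 for Lgals2. Vcan, a hyaluronan-binding proteoglycan of the Cd44 list, differed by -0.74 (SE 0.21, limma adjusted p = 0.55), and Nf2, which encodes merlin, by 0.31 (SE 0.32).

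Of the Tspo partners 1 was tested, Acbd3, at 0.39 (SE 0.28), or 0.15 without Cx43 KO 4. Among the tetraspanins, Tspan8 differed by -0.24 (SE 0.19), the leukocyte gene Cd53 by -0.40 (SE 0.55; -0.93 without Cx43 KO 4) and Cd151 by -0.00096 (SE 0.23; 0.15 without Cx43 KO 4). Steap3, the ferrireductase related to Steap4, differed by -0.56 (SE 0.30), opposite in sign to Steap4. It lay at 0.75 to 1.11 on WT arrays and at 0.09, 0.01, -0.03 and 1.38 on Cx43 KO 1 to 4, so that Cx43 KO 1 to 3 lay below every WT array and the difference was -0.91 without Cx43 KO 4. The transferrin receptor Tfrc differed by -0.42 (SE 0.38, 3 arrays per genotype). Tfrc, not fitted without Cx43 KO 4, was -0.46 on that array, -1.46 on Cx43 KO 1 and -1.81 on Cx43 KO 3.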

How the data were processed

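Astrocyte RNA (channel 2, per the labels) was compared with a tissue pool on 8 arrays. The deposited values are signed log ratios, read as log2. Their base, dyes, background correction and within-array normalization were not given in the sources used here. Exact 0, at 42.4% to 63.4% of features, was read as no ratio. Arrays give no counts here, and their number limits the precision.

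Each array was centred on its median. Features with 1 symbol were averaged per gene; 318 features with several symbols and 1943 without one stayed unnamed. Genes with at least 3 values per genotype were fitted with limma 3.58.1 in R 4.3.3 (lmFit, eBayes, two-sided, no block, Benjamini-Hochberg), tested on simulated data. Promoters came from RefSeq (GRCm38.p6). Named genes were the 10 of the set, the 3 tested genes of smallest p per list and the 5 most alike by Pearson's r. Genes and lists were chosen with earlier results of these data known.

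The labels pair same-numbered arrays by lot batch. Their deviations from the genotype means correlated at r = -0.18, 0.19, -0.13 and -0.19 across genes. Alternatives covered centring, normalization, zeros, features, missing values, blocks, weights and left-out arrays.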

Additional observations from a re-analysis of the deposited data

Results flagged for a closer look

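Means of marker and pathway lists were examined within each genotype of 4 arrays, and the 10 genes were left out because they were chosen in part for peaks on single arrays. In 2 of 24 such groups 1 array stood apart from the others by more than Dixon's 95% limit, which chance exceeds in about 1 of 20 groups. The mean of 3 astrocyte markers on Cx43 KO 4, at 0.46, lay below that of the other Cx43 KO arrays, by 0.83 of the range. The mean of 5 adult tissue genes on Cx43 KO 2, at -2.79, lay below the other Cx43 KO arrays by 0.87 of the range, although it lay within the WT range of -2.84 to -2.16.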

How the results depend on the processing

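The difference of Cx3cl1 kept its sign in all 23 alternatives that fitted it, from 0.59 to 1.06. Several of these could not move it, since the 10 genes each had 1 feature and 8 values and each lot batch held both genotypes. The settings for features, for the number of values and for a replicate block for lot batch therefore all gave the same 0.86. Cx3cl1 was also chosen for this difference, so its kept sign is no evidence for it. The fit called 0 of all genes tested in every alternative that left out no array, and 0 to 4 when 1 array or 1 lot batch was left out, with 4 without Cx43 KO 4 and 1 without WT 2. None of these calls was a gene of the set or of the pathway lists. The count at an unadjusted p of 0.05, 263 in the reported fit, was 196 with the replicate block, 468 with array weights, which gave Cx43 KO 4 the lowest weight (0.32), and 102 to 427 with arrays or lot batches left out, where the genes tested also changed. The block changed no other call. The number of the 10 genes that were higher in Cx43 KO was 6 in every alternative that kept all arrays and 5 to 8 otherwise. The number of genes with a single-array peak was 7 with a gap of 0.5 and 4 with a gap of 1.5 log2 units. It was 0 to 6 with arrays or lot batches left out, with 0 without Cx43 KO 4 and 6 without Cx43 KO 3. With array weights Ccl9 differed by -0.89, Lgals9 by -1.11, Tspo by 0.06, Steap4 by 1.03, Nfkb2 by 0.53, Cd44 by 0.34 and Tm4sf1 by -0.40. Each gene of the set rests on 1 feature, and the signal over background behind a ratio is unknown.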
